A study of Mus musculus with 2 samples.

Results

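The collagens are the main structural proteins of the extracellular matrix. Each molecule is a triple helix of alpha chains, which may come from 1 gene or from several. Fibrillar collagens build the load-bearing fibrils, and type II and type XI chains form those of cartilage. FACIT collagens (fibril-associated collagens with interrupted triple helices, such as type IX) sit on the fibril surface. Type IV chains form the network of basement membranes, type VI chains form beaded filaments, and type X is the collagen of hypertrophic cartilage.

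All genes whose symbol is Col, a number, a and a number were taken as collagen chains, with symbols read from the RefSeq accession of each array probe. The rule found 43 genes, read by 63 probes, among 20660 genes with a symbol on the array. It used names only and no measured value. Col12a1 matched no accession and is not analysed here. The array compared 2 stable lines of ATDC5, a mouse chondrocyte cell line, both made by lentiviral transduction and both grown for 3 days in monolayer on 60 mm dishes. The labels give HES1 overexpression for one line and GFP overexpression for the other. HES1 is a repressor of transcription that Notch signalling induces, and GFP is a fluorescent protein used as the control. The labels do not say whether a line was 1 clone or a pool, nor which promoter drove the transgene.

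Each line gave 1 total RNA sample and 1 single-colour Agilent array, so differences between the lines carry neither replicate spread nor a p-value. Signals are the scanner software's processed intensities after both arrays were set to a 75th percentile of 1057.2, and they can be compared between lines for a probe but not between probes. A chain counted as higher or lower where its signals differed at least 2-fold. The technical error given with a log2 difference is the scanner software's own error model (median 0.20 over all genes) and leaves out differences between cultures. Spots well above background made up 56.6% on the HES1 array and 54.6% on the GFP array. From here on, above background means well above background by the scanner software's flag. The only Hes1 probe read 10.3 on the HES1 array and 10.2 on the GFP array, above background on neither, so it showed no Hes1 overexpression. The labels do not give the species or the part of the gene in the transgene, and whether this probe can read it was not tested. The lines are therefore named by their labels, and every direction below rests on those labels. Of 11 chondrocyte markers, 5 were above background in the HES1-labelled line and 6 in the GFP-labelled line. All 6 differences were in the lower direction, as were 55.0% of all genes. Sox9, Sox5, Acan, Comp and Chad were seen in both lines, and Sox6 in the GFP-labelled line only (bound -0.57). Comp (-0.88, error 0.23) and Sox9 (-0.19, error 0.07) differed by more than 2 technical errors. Acan (-0.37, error 0.24), Sox5 (-0.13, error 0.20) and Chad (-0.07, error 0.29) did not. Matn1, Matn3, Hapln1, Snorc and Cnmd were seen in neither. The list's summed signals, 35596 in the HES1-labelled line and 39335 in the GFP-labelled line, came mostly from Sox5, with 31887 in the HES1-labelled line and 34961 in the GFP-labelled line.

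Of the 43 chains, 32 were detected (well above background on 1 or both arrays), 28 of them on both. The other 4 were above background in the HES1-labelled line only, and no chain was above background in the GFP-labelled line only. In the HES1-labelled line 7 of the 32 chains were at least 2-fold higher and 0 were at least 2-fold lower, while 11.1% of all 14273 genes measured were higher and 4.95% lower by the same rule. Where a gene seen on 1 array was counted by its bound instead, the chains' counts were also 7 and 0, and 9.49% and 4.47% of all genes passed. Passing the background filter through the HES1 array alone favours the higher direction, so the 28 chains seen on both arrays are also given. Of these, 4 were higher and 0 lower, against 7.04% and 4.41% of the 13073 genes seen on both arrays. The median log2 difference was 0.08 over the 32 chains and -0.06 over all genes, and -0.03 against -0.09 where both arrays were above background. With RNA from whole cultures, fewer cells making a chain and less of its RNA per cell cannot be told apart.

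**Figure D1:**
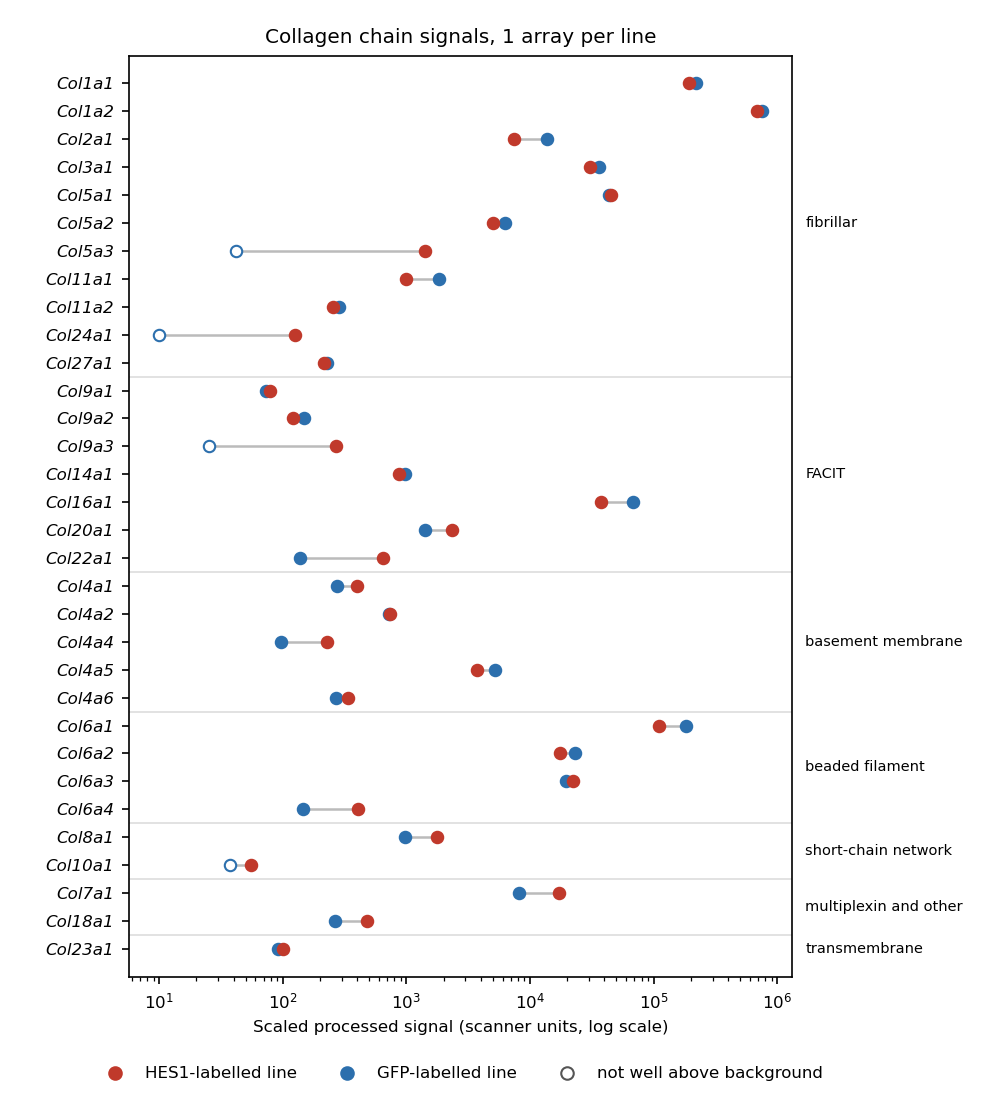
Scaled processed signal (scanner units, log scale) of the 32 measured collagen chains, with the HES1-labelled line in red and the GFP-labelled line in blue, 1 array each, grouped by class. Open circles were not well above background. Compare points within a row only. Col5a3, Col9a3, Col24a1 and Col10a1 are open in the GFP-labelled line, and Col2a1, Col11a1, Col16a1 and Col6a1 lie furthest to the left of their GFP values.

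Promoter sequences are shown for the chain with the largest difference and for a second fibrillar chain higher in the HES1-labelled line. Another is shown for a cartilage fibril chain in the lower direction but within 2-fold. The sequences run 5′ to 3′ along the gene, stop before the outermost annotated start of the gene, and come from RefSeq on GRCm38.p6. Capitals mark matches on either strand to CACNAG or CACGNG, the N box and C site letters that HES repressors are known to bind. A CACGAG run would match both.
Col5a3 (chr9:20815118-20815317, minus strand): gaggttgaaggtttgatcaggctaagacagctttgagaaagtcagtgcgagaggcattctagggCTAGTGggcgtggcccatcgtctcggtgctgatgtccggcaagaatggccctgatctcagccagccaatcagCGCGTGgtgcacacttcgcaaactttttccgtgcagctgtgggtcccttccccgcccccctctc
Col24a1 (chr3:145292222-145292471, plus strand): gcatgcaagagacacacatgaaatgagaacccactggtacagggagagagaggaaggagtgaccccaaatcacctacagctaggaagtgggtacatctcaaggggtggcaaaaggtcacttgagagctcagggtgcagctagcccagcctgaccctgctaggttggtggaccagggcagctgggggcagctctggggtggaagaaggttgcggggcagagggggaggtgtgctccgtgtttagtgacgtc
Col11a1 (chr3:114030290-114030478, plus strand): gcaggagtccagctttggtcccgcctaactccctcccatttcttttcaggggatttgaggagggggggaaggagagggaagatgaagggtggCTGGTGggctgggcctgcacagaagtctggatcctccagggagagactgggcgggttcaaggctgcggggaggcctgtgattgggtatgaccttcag
The Col5a3 stretch held 1 match to each motif, the Col11a1 stretch 1 match to CACNAG, and the Col24a1 stretch none.

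In the 250 bases before the start, a CACNAG match was found in 14 of 38 collagen promoters (36.8%, from 35 genes) and in 36.7% of all 32851 promoters. CACGNG was found in 7 of the 38 (18.4%) and in 23.5% of all. Both shares lay near those of all promoters, and their differences were not tested. A TATAAA run was found in 5 of the 38 (13.2%) and in 12.4% of all. A match is a run of letters and not a measured binding site.

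Among the fibrillar chains, 2 minor ones were higher in the HES1-labelled line. The rest lay within 2-fold, with Col2a1 and Col11a1 near its lower edge. All 11 fibrillar chains on the array were measured: 2 were higher, 0 were lower, and the other 9 lay within 2-fold. Their median was -0.16, and -0.18 over the 9 chains seen on both arrays. Of the 11 measured chains, 8 were in the lower direction, as were 55.0% of all genes measured. Only 2 were lower by more than 2 technical errors. Beside the counts of this class and those below, 11.1% of all genes were higher and 4.95% lower, with a median of -0.06.

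Type I collagen, the most abundant collagen of bone and connective tissue, was nearly level between the lines. Col1a1, its alpha 1 chain, read 193317 in the HES1-labelled line and 219155 in the GFP-labelled line, a log2 difference of -0.18 with a technical error of 0.20. Its partner Col1a2 read 690085 in the HES1-labelled line and 751409 in the GFP-labelled line, a difference of -0.12. The differences of both chains were smaller than their technical error, and they lay 0.06 apart. Col3a1, the type III chain of compliant tissues, read 30560 in the HES1-labelled line and 36030 in the GFP-labelled line (-0.24, error 0.20).

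The largest difference among collagens was in type V, which joins type I fibrils and limits their width. Col5a3, its alpha 3 chain, read 1424 in the HES1-labelled line and 42.0 in the GFP-labelled line, where it was not well above background. It was 33.9-fold higher by the ratio of these signals (5.08, error 0.40), which for this chain is also the bound. Its partners lay within 2-fold. Col5a1 read 44942 in the HES1-labelled line and 43210 in the GFP-labelled line (0.06). Col5a2 read 4988 in the HES1-labelled line and 6326 in the GFP-labelled line (-0.34). Each was within 2 technical errors of 0. Col24a1, a fibrillar chain described in developing bone, read 125 in the HES1-labelled line and 9.93 in the GFP-labelled line. It too was above background in the HES1-labelled line only, and 3.28-fold higher by its bound. With a normexp background correction its log2 difference was 0.90, under 2-fold, and that of Col5a3 was 3.00 in place of 5.08.

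Chains of the cartilage fibril were in the lower direction to unequal degrees. Col2a1, the main collagen of cartilage, read 7379 in the HES1-labelled line and 13796 in the GFP-labelled line, 1.87-fold lower (-0.90, error 0.20). Col11a1, which nucleates cartilage fibrils, read 994 in the HES1-labelled line and 1841 in the GFP-labelled line, 1.85-fold lower (-0.89, error 0.20). Both were beyond 2 technical errors yet short of 2-fold. Col11a2, the other type XI chain made by its own gene, read 254 in the HES1-labelled line and 284 in the GFP-labelled line (-0.16, error 0.22). Col27a1, a fibrillar chain of growth plate cartilage, read 215 in the HES1-labelled line and 227 in the GFP-labelled line (-0.08, error 0.23). These last chains differed by less than their technical error, so the 3 measured chains of the type II and XI fibril spanned 0.74 on the log2 scale.

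Taken as a class that crosses the structural ones, the cartilage collagens were the 4 chains just given plus type IX and type X. All 8 were measured, with 1 higher and the other 7 within 2-fold. Their median was -0.12. Over the 6 seen on both arrays the median was -0.23. Col9a3, the alpha 3 chain of type IX collagen, read 270 in the HES1-labelled line and 25.2 in the GFP-labelled line, where it was not well above background. By its bound it was 7.07-fold higher (a log2 bound of 2.82, against a difference of 1.14 after normexp). Its partners in the type IX molecule lay near the detection limit and near 0 difference. Col9a1 read 78.7 in the HES1-labelled line and 73.7 in the GFP-labelled line (0.10, error 0.33). Col9a2 read 121 in the HES1-labelled line and 149 in the GFP-labelled line (-0.29, error 0.24). A second Col9a1 probe was above background in neither line. Col10a1, the chain of hypertrophic cartilage, read 55.2 in the HES1-labelled line and 37.7 in the GFP-labelled line, where it was not well above background. By its bound it was 1.45-fold higher. Its log2 difference was 0.55 with a technical error of 0.50, within 2 technical errors of 0, and 0.06 after normexp.

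Markers of hypertrophic chondrocytes and osteoblasts are given beside Col2a1 and Col10a1, since the ATDC5 line can mature along that path. All 7 markers were above background in both lines, with summed signals of 14085 in the HES1-labelled line and 24980 in the GFP-labelled line. These sums came mostly from Alpl and Spp1, both within 2-fold. Alpl read 6940 in the HES1-labelled line and 12365 in the GFP-labelled line, and Spp1 5104 and 8072. Of the 7, 3 were at least 2-fold lower, against 4.41% of all genes seen on both arrays, and the others lay within 2-fold. Their median was -0.97. Ibsp, which encodes bone sialoprotein, read 211 in the HES1-labelled line and 666 in the GFP-labelled line. Their part in the collagen differences was not tested.

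**Figure D2:**
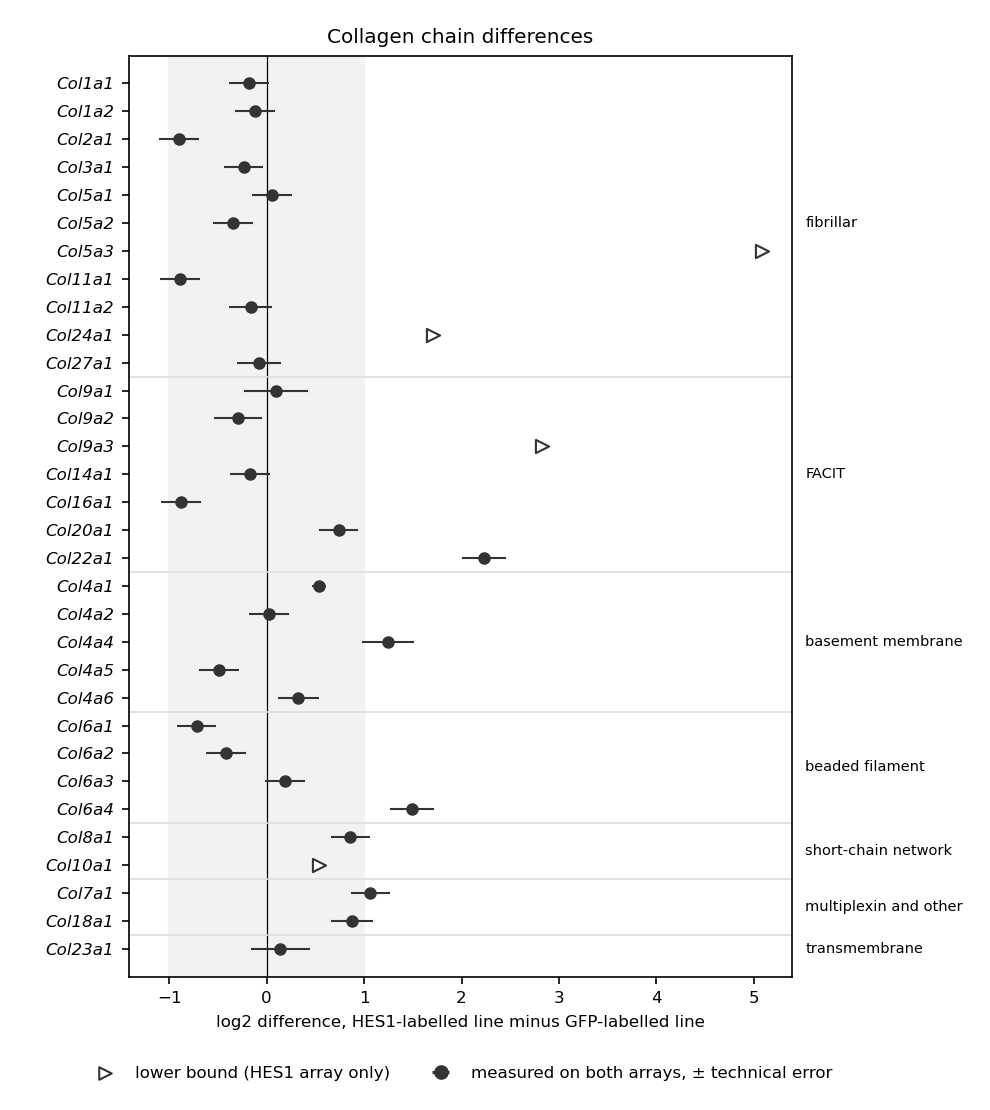
The log2 difference of each measured chain, HES1-labelled line minus GFP-labelled line, with the scanner software's technical error as the bar. Open triangles are bounds for chains above background in the HES1-labelled line only. For Col5a3 the bound equals the measured difference. The shaded band spans 2-fold either way. Every called chain lies to its right, from Col7a1 at 1.06 to the Col5a3 bound at 5.08, and none lies to its left.

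The FACIT chains seen on both arrays ran from -0.88 to 2.23. Of 8 on the array 7 were measured, and the 2 that passed 2-fold, Col9a3 above and Col22a1, were both higher. The median was 0.10, but -0.04 over the 6 chains seen on both arrays, -0.07 under quantile normalization and -0.08 after normexp. Col22a1, a collagen of tissue junctions such as that between muscle and tendon, read 649 in the HES1-labelled line and 138 in the GFP-labelled line. That was 4.69-fold higher, the largest difference among collagens seen in both lines (2.23, error 0.23), and it was 1.51 after normexp. Col20a1 read 2339 in the HES1-labelled line and 1402 in the GFP-labelled line (0.74, error 0.20), and its second probe gave 0.89. Col16a1 went the other way: 37384 in the HES1-labelled line and 68611 in the GFP-labelled line, 1.84-fold lower (-0.88, error 0.20). Its 3 probes differed widely in brightness and gave -0.89, -0.88 and -0.83, closer to each other than their technical errors. Col14a1, which binds fibrils of dense connective tissue, read 864 in the HES1-labelled line and 971 in the GFP-labelled line (-0.17). Col19a1 was above background in neither line.

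Basement membrane chains of type IV differed by unequal amounts. Of 6 chains on the array 5 were measured, 1 of which was higher and none lower. Their median was 0.32, and 0.02 by the median over each gene's probes. Col4a1 and Col4a2, the chains of the most widespread type IV molecule, are neighbours on chromosome 8. Col4a1 was printed as 10 spots per array, of which 8 were kept, and averaged 399 in the HES1-labelled line and 275 in the GFP-labelled line. All 8 spots were higher on the HES1 array, by 0.36 to 0.68, with a mean of 0.54 ± 0.09 (SD over 8 spots, a technical spread). Col4a2 read 740 in the HES1-labelled line and 729 in the GFP-labelled line (0.02, error 0.21). Col4a5 and Col4a6 are neighbours on the X chromosome. Col4a5 read 3747 in the HES1-labelled line and 5250 in the GFP-labelled line (-0.49, error 0.20). Col4a6 read 337 in the HES1-labelled line and 269 in the GFP-labelled line (0.32, error 0.21), but its second probe gave -0.56.

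The called chain was Col4a4, a chain of kidney, lung and inner ear basement membranes, at 229 in the HES1-labelled line and 96.4 in the GFP-labelled line (2.37-fold higher, 1.25 with an error of 0.27). The call depends on the probe. A second detected Col4a4 probe read 142 in the HES1-labelled line and 121 in the GFP-labelled line (0.23, error 0.24). Another was above background in neither line, and the median over detected probes was 0.74. After normexp the difference for Col4a4 was 0.15, and which of its probes gave that value was not checked. Its neighbour Col4a3 was above background in neither line. Col4a6 also had probes that disagreed, at 0.32 and -0.56, and its median over probes was -0.12.

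**Figure D3:**
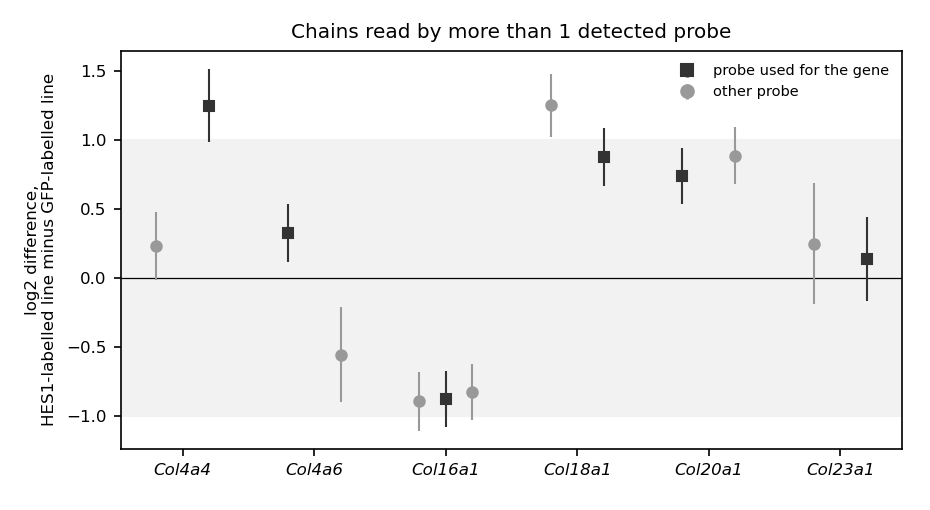
The log2 difference (HES1-labelled line minus GFP-labelled line, with technical error bars) of every probe above background on at least 1 array, for the 6 chains with more than 1 such probe; black squares are the probes used for the gene. The 3 Col16a1 probes lie together near -0.9, while the Col4a4 and Col4a6 probes lie apart.

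Among the beaded filament chains, the subunits of ordinary type VI collagen were level or in the lower direction and a chain of another kind was higher. Of 6 on the array, 4 were measured, with 1 higher, 0 lower and a median of -0.11 (0.12 with undetected chains included). Col6a1 read 110379 in the HES1-labelled line and 181825 in the GFP-labelled line, 1.65-fold lower (-0.72, error 0.20). Col6a2, which lies next to it on chromosome 10, read 17448 in the HES1-labelled line and 23304 in the GFP-labelled line (-0.42). Col6a3, the remaining subunit of that molecule, read 22113 in the HES1-labelled line and 19381 in the GFP-labelled line (0.19), so these 3 chains spanned 0.91. Col6a4, a paralogue of Col6a3, read 409 in the HES1-labelled line and 145 in the GFP-labelled line, 2.82-fold higher (1.49, error 0.22). Its second probe was above background in neither line, and after normexp the difference for Col6a4 was 0.998, just short of 2-fold. Col6a5 and Col6a6 were above background in neither line.

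The remaining measured chains were all in the higher direction, with 1 exception after normexp given below. Col7a1, which makes the anchoring fibrils of skin, read 17161 in the HES1-labelled line and 8205 in the GFP-labelled line, 2.09-fold higher (1.06, error 0.20). Col18a1, a multiplexin whose C-terminal fragment is endostatin, read 484 in the HES1-labelled line and 263 in the GFP-labelled line (0.88, error 0.21). Its second probe, the dimmer of the pair, gave 1.25, so the median over probes passed 2-fold. Col8a1, a short-chain collagen related to type X, read 1775 in the HES1-labelled line and 978 in the GFP-labelled line (0.86, error 0.20). Col23a1 was the only transmembrane chain detected, at 101 in the HES1-labelled line and 91.8 in the GFP-labelled line (0.14, error 0.30, and -0.10 after normexp). Col8a2, Col13a1, Col15a1, Col17a1, Col25a1, Col26a1 and Col28a1 were above background in neither line.

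A finer reading used the technical error in place of 2-fold. Of the 28 chains seen on both arrays, 8 were higher by more than 2 technical errors, 6 lower and 14 within it. Among all genes seen on both arrays 16.8% were higher and 23.1% lower by that rule. The 6 lower chains were Col2a1, Col11a1, Col16a1, Col6a1, Col6a2 and Col4a5. The 8 higher chains were Col22a1, Col6a4, Col4a4, Col7a1, Col18a1, Col8a1, Col20a1 and Col4a1. At 1.5-fold, 10 of the 32 chains were higher and 4 lower, against 17.4% and 14.6% of all genes.

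Lists of genes that make, secrete and read collagen held 79 measured entries, of which 66 (83.5%) lay within 2-fold, as did 84.0% of all genes. Among all genes 11.1% were higher and 4.95% lower, and the median was -0.06. Chain modification enzymes hydroxylate and glycosylate the nascent chains. Of 15 on the array, 14 were measured, 1 was higher and 0 lower, with a median of -0.34. All 14 were seen on both arrays, and 11 of them were in the lower direction. Among all genes measured, including those seen on 1 array only, 55.0% were in the lower direction. The 1 gene at least 2-fold higher was Plod3, a lysyl hydroxylase that also glycosylates collagen. It read 42230 in the HES1-labelled line and 14295 in the GFP-labelled line (1.56, error 0.20). All 16 chaperone and secretion genes lay within 2-fold, with a median of -0.15. The largest difference there was Hspa5, the general chaperone of the endoplasmic reticulum, at 0.97.

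Enzymes that trim propeptides and crosslink fibrils held both the highest and a low member. Of 17 on the array, 14 were measured, 3 were higher and 1 lower (11.1% and 4.95% among all genes), with a median of -0.04. Mep1a, a metalloprotease that can remove procollagen propeptides, read 2391 in the HES1-labelled line and 39.8 in the GFP-labelled line, where it was not well above background. It was 60.1-fold higher by the ratio of these signals (5.91, error 0.39), which is also its bound. Adamts14, a procollagen N-propeptidase, differed by 1.10 and the transglutaminase Tgm2 by 1.08. Pcolce2, an enhancer of C-propeptide removal, read 877 in the HES1-labelled line and 2701 in the GFP-labelled line (-1.62, error 0.20). Its relative Pcolce differed by -0.03, and the 5 lysyl oxidases of the list were within 2-fold.

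Collagen receptors were lower in 2 of 12 measured genes and higher in 1, with a median of -0.30. All 12 were seen on both arrays, where 4.41% of all genes were lower and 7.04% higher. Ddr1, a receptor tyrosine kinase that binds collagen, read 653 in the HES1-labelled line and 1889 in the GFP-labelled line (-1.53, error 0.21), while Ddr2 differed by -0.01. Itga11, an integrin alpha chain for fibrillar collagen, read 7527 in the HES1-labelled line and 21168 in the GFP-labelled line (-1.49, error 0.20), while its partner Itgb1 differed by -0.00054. Adgrg1, an adhesion receptor for type III collagen, differed by 1.05. Of 23 regulators of collagen genes, 2 were higher and 3 lower (2 by bounds), against 11.1% and 4.95% of all genes, with a median of -0.19. Scx, a tendon transcription factor that activates type I collagen genes, read 4838 in the HES1-labelled line and 17021 in the GFP-labelled line (-1.81, error 0.20). Sp7, the osteoblast factor osterix, differed by -1.41, the matrix signal gene Ccn2 by 1.64 and Smad7, an inhibitor of TGF-beta signalling, by 1.04. Sox9 and Sox5, which drive Col2a1, read 3227 and 31887 in the HES1-labelled line against 3683 and 34961 in the GFP-labelled line.

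**Figure D4:**
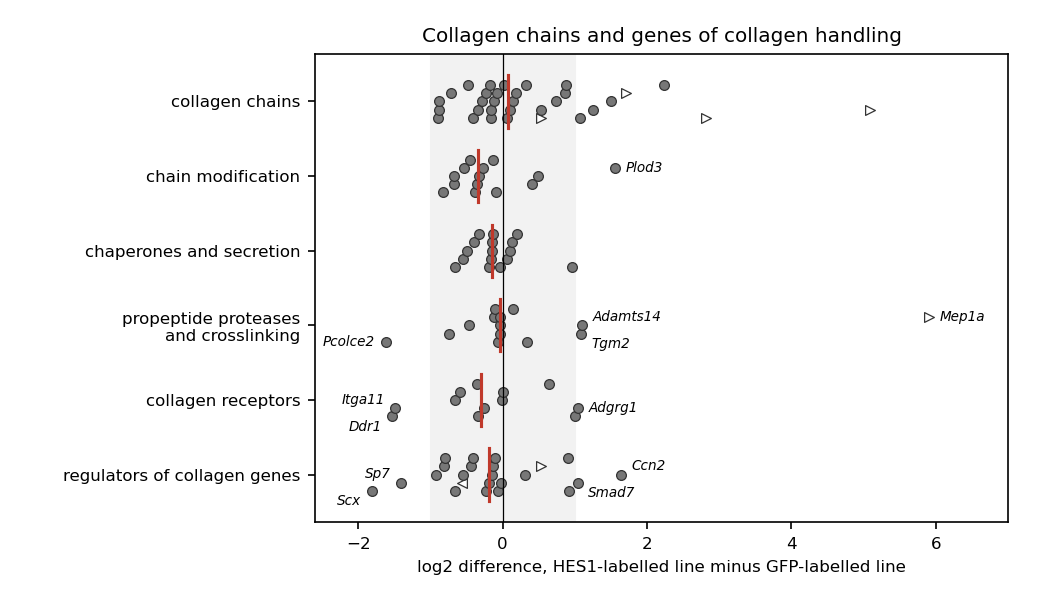
The log2 difference (HES1-labelled line minus GFP-labelled line) of every measured gene in the collagen chain list and in 5 lists of collagen handling genes; triangles are bounds for genes above background on 1 array, and red bars are list medians. Names mark the handling genes past 2-fold, with Mep1a at a bound of 5.91 and Scx at -1.81 the furthest out.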

How the data were processed

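Total RNA (0.1 µg per sample, per the labels' protocols) was labelled with Cy3. Agilent Feature Extraction 10.10.1.1 is named in the submitters' processing notes. Each spot, per the file headers, has an intensity that this software corrected for background and detrended within its array. The authors' deposited table gives that intensity times 1 factor per array, 1.53 for HES1 and 1.45 for GFP, on a linear scale. The design is annotated on mm9. Here log2 processed signal was centred on each array's 75th percentile over 59305 spots that are not controls. The 1053 spots with an outlier flag on either array were left out, none was saturated, and spots of a probe were averaged. Accessions were named through a RefSeq table of GRCm38.p6 (26869 of 54948 probes, 48.9%). A gene was read by its brightest probe above background on at least 1 array. Where only 1 array was above background, a bound sets the bright signal against the higher of the dim probe's own signal and the lowest signal above background (39.0 on the HES1 array, 38.1 on the GFP array). A bound leaves out technical error, and a smaller difference can result under another background correction. With 1 array per line no test was run, and the number of arrays limits the precision. Per the file headers, 1 slide carried both arrays.

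Members, lists and classes were chosen with earlier results of these data known. All chains are named. Of each handling list up to 4 members past 2-fold, or the largest, are named. Ibsp, Pcolce, Ddr2, Itgb1, Sox9 and Sox5 were named after their values were seen. The alternatives were quantile, median and loess (span 0.3) scaling, the deposited values, normexp (offset 50, on median spot signals, since mean signals were not used here) with quantile normalization, other filters, the median over probes, bounds and other thresholds. Python 3.11.15 and limma 3.58.1 were used, and the steps were tested on simulated data.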

Additional observations from a re-analysis of the deposited data

How the results depend on the processing

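The 7 chains at least 2-fold higher were the same genes under quantile, median and loess scaling, with the deposited values, with outlier spots kept and with bounds. After normexp 4 were higher (Col5a3, Col9a3, Col22a1 and Col7a1). With both arrays above background 4 were higher (Col22a1, Col6a4, Col4a4 and Col7a1), and at 3-fold 4 (Col5a3, Col9a3, Col24a1 and Col22a1). At 1.5-fold 4 chains were lower. Without a filter on dim probes 9 were higher. The median over all chains ran from -0.03 to 0.11. Among class medians, that of short-chain network chains was 0.39 and that of the single transmembrane chain -0.10 after normexp, that of beaded filament chains 0.12 without a filter, and that of basement membrane chains 0.023 by the median over probes; the cause was not tested. The FACIT median ran from -0.08 to 0.12 and so changed sign. Cartilage medians ran from -0.23 to -0.09 and fibrillar medians from -0.18 to -0.07. Of 316 values of single chains under an alternative, 168 could not or did not change. Of the 148 that changed, 11 moved by more than the technical error, 8 of them among the 32 values after normexp. Over all genes, 1582 were higher and 707 lower, against 852 and 342 after normexp, 920 and 577 with both arrays above background, 2480 and 2084 at 1.5-fold, and 997 and 178 at 3-fold. No paired analysis was possible because each line has 1 array. Signals close to the lowest detected ones (39.0 on the HES1 array, 38.1 on the GFP array) limit precision for Col4a4, Col9a1, Col9a2, Col10a1 and Col23a1, among others.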

Other observations

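Col26a1 and Col6a5 were counted only where no filter on dim probes was used, because the scanner software flagged their probes as not well above background on either array, yet their signals were unequal. Col26a1 read 51.7 in the HES1-labelled line and 10.1 in the GFP-labelled line, and Col6a5 read 43.3 in the HES1-labelled line and 14.6 in the GFP-labelled line. Both HES1 signals exceed the lowest signal that the software did call above background on that array, 39.0. No fold is given for either chain.

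Chains of 1 molecule seen on both arrays differed by unequal amounts in some molecules. The type I chains lay 0.06 apart on the log2 scale (combined technical error 0.29) and the type IX chains Col9a1 and Col9a2 0.39 (0.41), gaps within that error. The type V chains Col5a1 and Col5a2 lay 0.40 apart (0.29), beyond 1 error but within 2. Col4a1 and Col4a2 of type IV lay 0.51 apart (0.22), and the furthest type VI chains 0.91 (0.29), beyond 2 errors. In types V and IX the alpha 3 chain was outside these ranges, as a bound of 5.08 and of 2.82.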
